A study of Mus musculus with 20 samples.

Results

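The 48 genes described here are stimulated by type I interferon in the mouse and were taken as a fixed list by name from the 55260 genes to which the transcript counts were summed. Their counts were followed across 20 RNA-seq libraries of leukocytes sorted from MC38-OVA tumours, a colon carcinoma line that carries ovalbumin, grown in C57BL/6 mice. All 48 genes passed the filter on low counts in each of the 18 tested comparisons. Type I interferons bind the receptor IFNAR1/IFNAR2, whose kinases JAK1 and TYK2 phosphorylate STAT2. Together with IRF9, STAT2 is part of ISGF3, a factor that binds interferon-stimulated response elements in promoters and switches on antiviral genes, among them those of its own subunits and of IRF7, which drives further interferon synthesis. In tumours, tumour DNA taken up by dendritic cells and sensed through cGAS and STING is a known source of type I interferon, and the signal is known to help dendritic cells prime CD8 T cells.

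The 4 sorted populations, labelled CD8 T cells, CD11c+ CD11b+ and CD11c+ CD11b- dendritic cells and CD11c- CD11b+ myeloid cells, were each sequenced after 5 treatments: none, radiotherapy alone (RT, 8 Gy to the tumour on day 12), and RT combined with anti-SIRPa (400 µg per dose), with anti-PD-1 (250 µg per dose) or with both. The myeloid receptor SIRPa receives the CD47 signal that restrains phagocytosis, and T cells are restrained through PD-1. Cells were collected on day 17, 5 days after irradiation. Each library pooled leukocytes of 10 tumours, 1 per mouse, and each of the 20 groups had 1 library, so p-values measure the spread between pools of different treatment and not between replicates of 1 treatment. Values are CPM, counts scaled to a common library size with TMM factors, and wherever 4 irradiated values follow each other they stand in the order RT alone, anti-SIRPa added, anti-PD-1 added and both added.

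Library totals ran from 21.5 to 35.7 M estimated counts. The library labelled untreated CD8 T went against its label: its summed CD8 T markers were 223 CPM, against 3247 to 4954 CPM in the 4 irradiated CD8 T libraries, and its macrophage markers 18852 CPM against 1221 to 2750.2 CPM. It was left out of the tests reported here, and irradiation was not tested in CD8 T cells. It entered 1 alternative alone, a fit of all 20 libraries together, where a term of its own fitted it exactly. Both populations labelled dendritic cells also held other cells' markers. CD11c+CD11b+ libraries carried 7567 to 14529 CPM of macrophage markers beside 2246 to 3119 CPM of cDC2 markers, and CD11c+CD11b- libraries 923 to 1337 CPM of NK cell markers beside 856 to 3993 CPM of cDC1 markers. The cDC2 list holds Itgam, the gene of the sort marker CD11b, and Sirpa. Its sum was also 2886 CPM in the library labelled untreated CD8 T, so the sum alone does not show cDC2 cells. In CD11c-CD11b+ libraries, monocyte markers summed to 7977 to 9069 CPM and macrophage markers to 4461 to 8535 CPM. In sorted bulk samples such as these, fewer cells of a type and less RNA per cell cannot be told apart.

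The promoters of 7 members that recur in the results are printed here because they hold sequence matches to the core of the response element through which ISGF3 acts. Each runs 5′ to 3′ on the gene's strand from 200 to 21 bases before the transcription start of RefSeq, in GRCm38.p6, and capitals mark matches to the core of that element, GAAA, any 2 bases and GAAA again, or to its reverse complement.
Isg15 (chr4:156200839-156201018, minus strand): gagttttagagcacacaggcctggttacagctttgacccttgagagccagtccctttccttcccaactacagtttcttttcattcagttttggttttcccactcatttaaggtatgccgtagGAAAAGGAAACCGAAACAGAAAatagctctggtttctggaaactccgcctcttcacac
Ifit1 (chr19:34640689-34640868, plus strand): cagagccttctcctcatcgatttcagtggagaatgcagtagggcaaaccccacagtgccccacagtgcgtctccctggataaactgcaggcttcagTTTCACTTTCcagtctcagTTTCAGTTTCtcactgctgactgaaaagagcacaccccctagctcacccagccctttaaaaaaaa
Ifit3 (chr19:34583329-34583508, plus strand): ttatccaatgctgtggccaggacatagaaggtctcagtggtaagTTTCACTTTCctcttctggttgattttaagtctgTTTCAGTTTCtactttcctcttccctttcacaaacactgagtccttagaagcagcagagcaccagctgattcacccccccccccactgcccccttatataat
Ifit3b (chr19:34607757-34607936, plus strand): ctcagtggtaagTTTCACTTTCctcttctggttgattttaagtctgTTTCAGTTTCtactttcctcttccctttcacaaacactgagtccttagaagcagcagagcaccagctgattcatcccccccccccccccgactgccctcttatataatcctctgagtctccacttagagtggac
Phf11b (chr14:59341351-59341530, minus strand): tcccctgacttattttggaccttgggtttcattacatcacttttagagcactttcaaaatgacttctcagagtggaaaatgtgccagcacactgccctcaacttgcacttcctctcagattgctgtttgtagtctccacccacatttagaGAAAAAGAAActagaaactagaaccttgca
Rsad2 (chr12:26456473-26456652, minus strand): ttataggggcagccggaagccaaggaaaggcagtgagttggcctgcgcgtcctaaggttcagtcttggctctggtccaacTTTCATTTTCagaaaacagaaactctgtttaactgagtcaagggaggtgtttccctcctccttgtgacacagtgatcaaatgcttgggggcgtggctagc
Bst2 (chr8:71537493-71537672, minus strand): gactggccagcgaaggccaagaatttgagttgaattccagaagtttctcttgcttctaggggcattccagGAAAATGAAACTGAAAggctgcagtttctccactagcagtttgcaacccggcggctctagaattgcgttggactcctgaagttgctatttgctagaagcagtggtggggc
Isg15 held 3 overlapping matches and Bst2 2, as 1 block of capitals each, and the Ifit genes held 2 separate matches each on the opposite strand. Rsad2 and Phf11b held 1 match each. The promoters of Ifit3 and its neighbouring copy Ifit3b shared 216 of 224 aligned bases (96.4%), and those of Oas1a and Oas1g 212 of 253 (83.8%). Over the full windows of the RefSeq table, 250 bases before to 50 after the start, this core on either strand occurred in 17 of the 37 members present (45.9%) and in 1079 of all 27025 promoters (3.99%). TTCNNNGAA, the shorter gamma-activated site of the interferon gamma pathway, occurred in 7 of the 37 (18.9%) and in 9.55% of all promoters, and a match may overlap one of the first motif. A match describes letters in the window and shows no binding.

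The members differed widely in level. Per transcript length (TPM, counts over transcript length scaled to a common total, mean of 20 libraries), Ifitm3, which blocks viral entry at endosomal membranes, led at 1340 TPM with a range over libraries of 316 to 2556 TPM. Lgals3bp, a secreted glycoprotein that binds galectin-3, followed at 676 TPM, Irf7 at 504 TPM and Ifi27l2a, a small interferon-inducible protein, at 448 TPM. At the low end stood Mx2 at 44.2 TPM, the helicase-like Ddx60 at 33.8 TPM and Oas1b at 13.9 TPM.

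Summed over the 48 members, both CD11b+ populations stood above CD11c+CD11b- cells, and irradiated libraries above untreated ones. CD11c+CD11b+ cells held 8191 CPM untreated and 15314, 14122, 13612 and 15778 CPM irradiated, an irradiated mean of 14707 ± 1009.6 CPM (SD, n = 4 pools) that was 1.8 times the untreated value. CD11c-CD11b+ cells held 6643 CPM untreated and 14429, 11644, 15190 and 15619 CPM irradiated, 2.14 times as much. In CD11c+CD11b- cells the sum was 4706 CPM untreated and 7252, 6395, 6193 and 6613 CPM irradiated, 1.41 times as much. Every irradiated myeloid library lay above the untreated library of its population, and every CD11c+CD11b- library lay below the untreated CD11c+CD11b+ library. The irradiated CD8 T libraries summed to 7695, 7239, 6598 and 8191 CPM, a range that overlaps that of irradiated CD11c+CD11b- cells, and the library labelled untreated CD8 T to 8092 CPM. Of the 48 members, 26 had their highest irradiated mean in CD11c+CD11b+ cells and 19 in CD11c-CD11b+ cells, and 32 had their lowest in CD11c+CD11b- cells. These places were counted for the members alone, without a share over all genes to set them against.

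**Figure D1:**
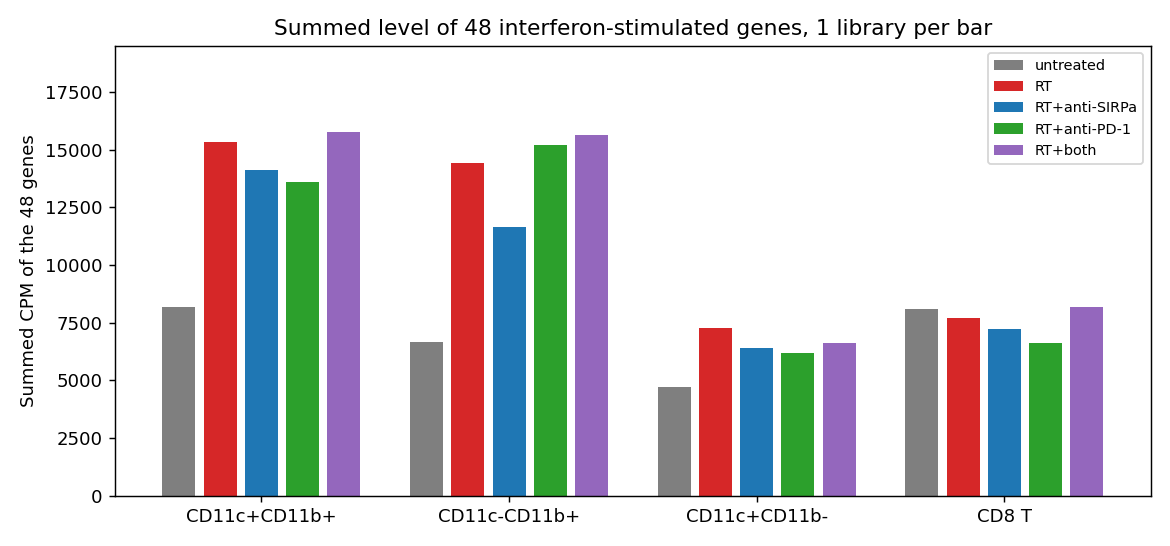
Summed CPM of the 48 interferon-stimulated genes (vertical axis, linear from 0) in each of the 20 libraries, grouped by sorted population, with 1 bar per treatment pool. The untreated bar is the lowest of its population in the 3 myeloid populations, at 8191, 6643 and 4706 CPM; the CD8 T bar labelled untreated comes from the library whose markers went against its label.

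Irradiation was tested within each myeloid population as the 4 irradiated pools against the untreated pool, which asks whether interferon-stimulated genes differ in tumours 5 days after RT whatever antibody was added. In CD11c+CD11b+ cells all 48 log2 differences were positive (median 0.81, against 0.02 over all 16553 genes), and 10 members rose at an edgeR adjusted p under 0.05 with none lower, where 0.622% of all genes were called higher and 0.266% lower. These were Irf7, Oas3, Rtp4, Ifit2, Oasl1, Ddx60, Phf11b, Xaf1, Usp18 and Oas1g. The untreated library lay below all 4 irradiated libraries for 48 of 48 members, a pattern held by 31.1% of all genes. In CD11c-CD11b+ cells the differences were larger, with a median of 1.13 (0.01 over all 16733 genes) and 48 of 48 positive, yet no member passed, with adjusted p from 0.15 to 0.339, where 0.0% of all genes passed in either direction. There 46 members were at an unadjusted p under 0.05, DESeq2 called 41 members, and the untreated library was the lowest for 48 of 48 (31.6% of all genes). In CD11c+CD11b- cells no member passed either (adjusted p 0.0659 to 0.995; 0.0% of all 16195 genes called higher and 0.0185% lower), 36 of 48 differences were positive and the median was 0.35. The untreated library was the lowest for 28 members (37.8% of all genes), the highest for 3 (27.1%), and within the irradiated range for 17. At an unadjusted p under 0.05 were 22 members there, and DESeq2 called 18. Here and below, no share of all genes is given for counts at an unadjusted p, by DESeq2 or in other alternative fits. Those counts cannot be set against the shares called in the main edgeR fit.

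Marker sums moved with the same contrast. In CD11c+CD11b+ cells macrophage markers read 7567 CPM untreated and 11691 to 14529 CPM irradiated, with 12 of 12 markers lowest in the untreated library. Monocyte markers read 9256 CPM untreated and 4697 to 5717 CPM irradiated there, with 4 of 9 highest and 2 of 9 lowest untreated. Most of that sum was Fn1 (6979 and 2444 to 3718 CPM), while Ly6c2 read 248 and 475 to 640 CPM. The cDC1 markers of CD11c+CD11b- cells read 856 CPM untreated and 1953 to 3993 CPM irradiated (11 of 11 markers lowest untreated), those of mature dendritic cells 441 and 825 to 1949.6 CPM (6 of 6), and those of plasmacytoid dendritic cells, the specialised interferon producers, 407 and 429 to 1198 CPM (9 of 10). Macrophage markers of CD11c+CD11b- cells read 1212 CPM untreated and 553 to 1146 CPM irradiated (8 of 12 highest and 2 of 12 lowest untreated). Their monocyte markers read 3973 and 2033 to 2965 CPM (4 of 9 highest and 4 of 9 lowest untreated). Their CD8 T markers read 290 and 419 to 520 CPM (9 of 10 lowest untreated) and their NK cell markers 923 and 978 to 1337 CPM (6 of 7). In CD11c-CD11b+ cells macrophage markers read 5806 CPM untreated and 4461 to 8535 CPM irradiated (3 of 12 lowest and 2 of 12 highest untreated). Their monocyte markers read 7977 and 7982 to 9069 CPM. Of the 9 monocyte markers 7 were lowest in the untreated library there, among them Ly6c2 (155 and 409 to 678 CPM), Plac8 (194 and 455 to 688 CPM) and Ccr2 (281 and 388 to 649 CPM), and Fn1, at 5909 and 4183 to 5535 CPM, was highest. The cDC2 markers of CD11c-CD11b+ cells read 1203 CPM untreated and 1555 to 2767 CPM irradiated (5 of 8 lowest and 2 of 8 highest untreated). Their cDC1 markers read 514 and 613 to 872 CPM (5 of 11 lowest and 4 of 11 highest untreated). Those of mature dendritic cells read 281 and 104 to 227 CPM (5 of 6 highest untreated). Of their CD8 T markers 9 of 10 were lowest untreated, and of their NK cell markers 5 of 7 were lowest and 1 of 7 highest. Summed markers of tumour and stroma were highest in the untreated library of all 3 populations. The sums were 4358 CPM against 717 to 1639.9 in CD11c+CD11b+ cells, 5697 against 1188 to 2640 in CD11c-CD11b+ cells and 5841 against 407 to 1505 in CD11c+CD11b- cells. By single marker, in the same order, 4 of 7, 3 of 7 and 5 of 7 were highest untreated. In CD11c+CD11b- cells 1 of 7 was lowest untreated, and none was in the others. No marker of these lists was at 0 in all 5 libraries of the population it is given for, and their part in the result was not tested.

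The call in CD11c+CD11b+ cells depended on the fit. DESeq2 called 44 members, a model with a term for each antibody 45, and edgeR without the filter or on protein-coding transcripts alone 0. Without the RT pool or the RT with both antibodies pool no member passed, and without the RT with anti-SIRPa pool 43 passed. In CD11c-CD11b+ cells leaving out the RT with anti-SIRPa pool gave 45 calls, and in CD11c+CD11b- cells 17. The share of all genes called in these fits is not given. The counts therefore show how far the calls depend on the fit, and not a result particular to the members.

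**Figure D2:**
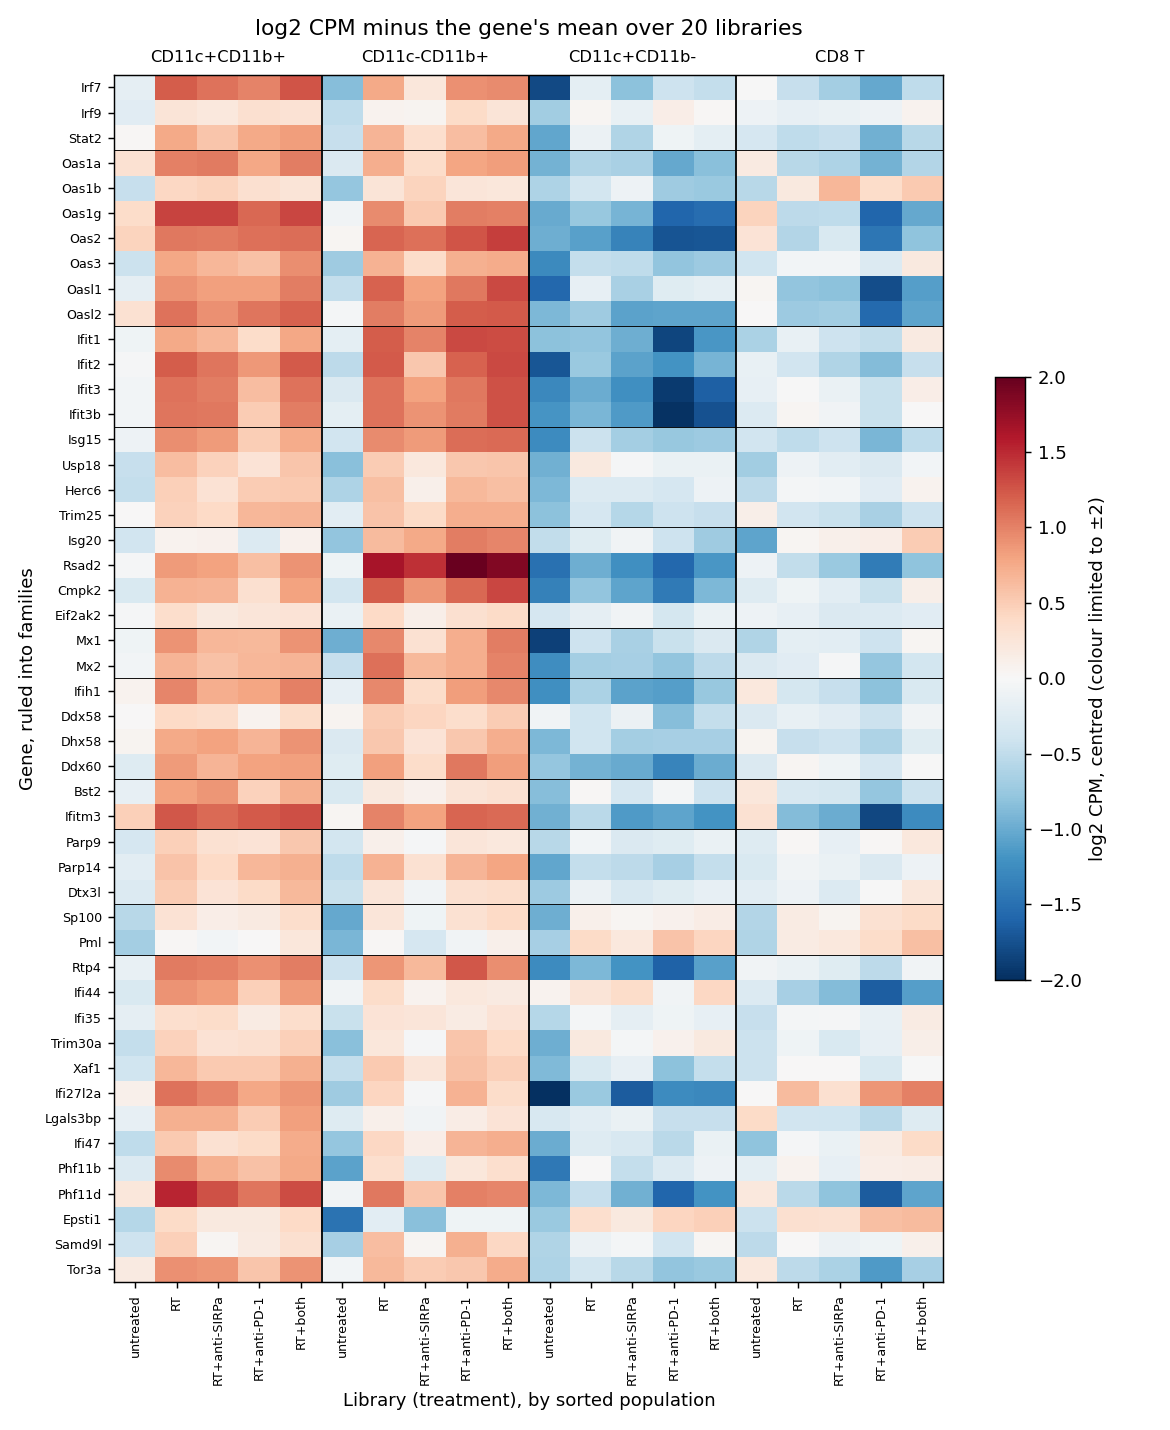
Level of each of the 48 members (rows, ordered by family) in the 20 libraries (columns, by population and treatment), as log2 CPM minus the member's mean over the libraries. The untreated columns of CD11c+CD11b+ and CD11c-CD11b+ cells are lower than the 4 irradiated columns beside them for 48 of 48 members, and for 28 members in CD11c+CD11b- cells.

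Among the transcription factors of the pathway, Irf7 gave the largest differences. Irf7 read 424 CPM untreated and 1111, 1022, 954 and 1154 CPM irradiated in CD11c+CD11b+ cells, 265 and 816, 562, 907 and 926 CPM in CD11c-CD11b+ cells, and 138 and 419, 272, 361 and 345 CPM in CD11c+CD11b- cells. Irf7 in irradiated CD8 T cells read 349, 299, 236 and 339 CPM, against 479.7 CPM in the library labelled untreated. Irf7 was more than 2 times its untreated level in all 8 irradiated libraries of the CD11b+ populations. Its log2 difference was 1.31 ± 0.16 (SE) in CD11c+CD11b+ cells (edgeR adjusted p = 0.0398), 1.61 ± 0.34 in CD11c-CD11b+ cells (adjusted p = 0.151) and 1.28 ± 0.26 in CD11c+CD11b- cells (adjusted p = 0.0696). For Irf9, the untreated and then the irradiated levels were 94.2 and 132, 128, 138 and 136 CPM in CD11c+CD11b+ cells, 77.8 and 117, 115, 144 and 132 CPM in CD11c-CD11b+ cells, and 68.6 and 114, 100, 121 and 113 CPM in CD11c+CD11b- cells. Irf9 stood at 99, 101, 103 and 116 CPM in the irradiated CD8 T libraries and at 103 CPM in the library labelled untreated. The DNA-contacting subunit of ISGF3, Irf9 varied least of the 3 factors, yet its untreated library was the lowest in each myeloid population. Levels of Stat2 were 280.3 CPM without and 467, 406, 469.8 and 492 CPM with irradiation in CD11c+CD11b+ cells, 202 and 442, 351, 426 and 466 CPM in CD11c-CD11b+ cells, and 134 and 256, 183, 260.1 and 241 CPM in CD11c+CD11b- cells. Stat2 in CD8 T cells read 194, 200.3, 143 and 189 CPM with irradiation, and 220.2 CPM in the library labelled untreated. Stat2, the ISGF3 subunit that carries its activation domain, differed by 0.70 (CD11c+CD11b+ cells), 1.07 (CD11c-CD11b+) and 0.74 (CD11c+CD11b-) on the log2 scale, none of which passed. For all 3 factors the irradiated libraries of the 3 myeloid populations did not overlap the untreated one.

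The oligoadenylate synthetases sense double-stranded RNA and activate the nuclease RNase L. Their median log2 difference with irradiation was 0.80 in CD11c+CD11b+ cells (7 of 7 positive, 3 called), 1.13 in CD11c-CD11b+ cells (7 of 7, none called) and 0.08 in CD11c+CD11b- cells (4 of 7, none called). Oas3 read 214 CPM untreated and 493, 453, 429.8 and 549.7 CPM irradiated in CD11c+CD11b+ cells, 175 and 466, 372, 468 and 482 CPM in CD11c-CD11b+ cells, and 119 and 206, 203, 165 and 174 CPM in CD11c+CD11b- cells. Oas3 in irradiated CD8 T cells read 277, 278, 239 and 330.4 CPM, against 217 CPM in the library labelled untreated. Oas3, the largest synthetase, rose by 1.16 ± 0.16 in CD11c+CD11b+ cells (edgeR adjusted p = 0.0475). For Oasl1, the untreated and then the irradiated levels were 118 and 248, 236, 235 and 269 CPM in CD11c+CD11b+ cells, 95.8 and 303, 233, 277 and 332 CPM in CD11c-CD11b+ cells, and 44.9 and 119, 85.2, 112 and 116 CPM in CD11c+CD11b- cells. Oasl1 stood at 76.6, 75.2, 38.9 and 61.8 CPM in the irradiated CD8 T libraries and at 137 CPM in the library labelled untreated. Oasl1, an enzymatically inactive member that represses Irf7 translation, rose by 1.06 ± 0.13 (adjusted p = 0.0398) and differed by 1.20 ± 0.24 in CD11c+CD11b- cells (adjusted p = 0.0696). Levels of Oas1g were 68.3 CPM without and 136, 135, 117 and 134 CPM with irradiation in CD11c+CD11b+ cells, 50.8 and 102, 76.5, 108 and 107 CPM in CD11c-CD11b+ cells, and 26.3 and 31.5, 27.8, 17.8 and 18.6 CPM in CD11c+CD11b- cells. Oas1g in CD8 T cells read 37, 37.2, 17.7 and 26.2 CPM with irradiation, and 72.5 CPM in the library labelled untreated. Oas1g rose by 0.92 ± 0.12 in CD11c+CD11b+ cells (adjusted p = 0.0412), and in CD11c+CD11b- cells the 2 pools with anti-PD-1 lay below the untreated library. Oas2 read 144 CPM untreated and 222, 218, 229 and 231 CPM irradiated in CD11c+CD11b+ cells, 109 and 239, 228, 254 and 276 CPM in CD11c-CD11b+ cells, and 53.8 and 50.1, 41.9, 31.9 and 32.5 CPM in CD11c+CD11b- cells. Oas2 in irradiated CD8 T cells read 70.6, 86.1, 39 and 60.9 CPM, against 128 CPM in the library labelled untreated. Oas2 read lower in all 4 irradiated CD11c+CD11b- libraries than in the untreated one (log2 difference -0.53 ± 0.24, adjusted p = 0.231), the opposite side from both CD11b+ populations. For Oasl2, the untreated and then the irradiated levels were 371 and 638, 568, 634 and 682 CPM in CD11c+CD11b+ cells, 294 and 612, 547, 697 and 707 CPM in CD11c-CD11b+ cells, and 162 and 184, 144, 146 and 145 CPM in CD11c+CD11b- cells. Oasl2 stood at 183, 185, 102 and 145 CPM in the irradiated CD8 T libraries and at 305 CPM in the library labelled untreated. Oasl2 overlapped between untreated and irradiated CD11c+CD11b- libraries and did not overlap in the other 2. Reads of Oas1a, Oas1b and Oas1g may be split between near-identical copies, so each is uncertain alone, and under 50% of the counts of Oas1b and Oas1g fell on protein-coding transcripts. Oas1b is annotated as a polymorphic pseudogene.

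The IFIT proteins bind viral RNA without proper caps. Their median difference was 0.99 in CD11c+CD11b+ cells, with Ifit2 called at 1.12 ± 0.16 (edgeR adjusted p = 0.0475), 1.39 in CD11c-CD11b+ cells and -0.23 in CD11c+CD11b- cells. Levels of Ifit1 were 131 CPM without and 236, 219.8, 179 and 239 CPM with irradiation in CD11c+CD11b+ cells, 122 and 322, 278, 347 and 343 CPM in CD11c-CD11b+ cells, and 79.2 and 80.7, 71, 38.8 and 62.5 CPM in CD11c+CD11b- cells. Ifit1 in CD8 T cells read 126, 104, 98.9 and 157 CPM with irradiation, and 89.5 CPM in the library labelled untreated. Ifit1 read lower in 3 of the 4 irradiated CD11c+CD11b- libraries than untreated, and higher in all 8 of the other populations. Ifit3 read 248 CPM untreated and 546, 524, 393 and 547 CPM irradiated in CD11c+CD11b+ cells, 209.8 and 543, 448, 533 and 625 CPM in CD11c-CD11b+ cells, and 106 and 129.5, 110.1, 68.1 and 82.8 CPM in CD11c+CD11b- cells. Ifit3 in irradiated CD8 T cells read 256, 234, 188 and 281 CPM, against 229.5 CPM in the library labelled untreated. For Ifit3b, the untreated and then the irradiated levels were 102 and 222, 219.6, 149 and 216 CPM in CD11c+CD11b+ cells, 92.6 and 225, 197, 216 and 254 CPM in CD11c-CD11b+ cells, and 46.5 and 56, 48, 26.9 and 31.4 CPM in CD11c+CD11b- cells. Ifit3b stood at 108, 100, 77.1 and 106 CPM in the irradiated CD8 T libraries and at 86.8 CPM in the library labelled untreated. The 2 Ifit3 copies had like profiles, with the lowest irradiated value in the RT with anti-PD-1 pool of CD11c+CD11b+ and of CD11c+CD11b- cells, and their counts may be shared between copies. Ifit2 departed from the other IFIT genes in CD11c+CD11b- cells, where its 4 irradiated libraries, at 122 to 167 CPM, all exceeded the untreated 84.5 CPM.

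Of the Mx GTPases, which trap viral nucleocapsids, Mx1 gave the largest difference in CD11c+CD11b- cells. For Mx1, the untreated and then the irradiated levels were 159.8 and 316, 269, 266 and 316 CPM in CD11c+CD11b+ cells, 86.5 and 331, 210.5, 283 and 346 CPM in CD11c-CD11b+ cells, and 46.4 and 127, 108, 126 and 139 CPM in CD11c+CD11b- cells. Mx1 stood at 148, 147, 128 and 175 CPM in the irradiated CD8 T libraries and at 112 CPM in the library labelled untreated. Its log2 difference was 1.37 ± 0.20 there (edgeR adjusted p = 0.0659), 1.77 ± 0.32 in CD11c-CD11b+ cells (adjusted p = 0.151) and 0.86 ± 0.15 in CD11c+CD11b+ cells (adjusted p = 0.0568). Untreated and irradiated values of Mx1 and Mx2 did not overlap in any of the 3 populations, and under 50% of the counts of both fell on protein-coding transcripts. For Mx1 this share was 24.2%, and 51.4% fell on a transcript annotated as a target of nonsense-mediated decay. Mx2 is annotated as a polymorphic pseudogene, and its share was 0.215%. The levels of both are of RNA, and functional protein was not measured.

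The ubiquitin-like modifier Isg15 and its protease Usp18, which also blocks IFNAR2, are counted with the ligases Herc6 and Trim25. Isg15 read 97.9 CPM untreated and 201, 191, 148 and 177 CPM irradiated in CD11c+CD11b+ cells, 81.3 and 204, 190.3, 228 and 231 CPM in CD11c-CD11b+ cells, and 44.2 and 78, 65.8, 62.4 and 63.7 CPM in CD11c+CD11b- cells. Isg15 in irradiated CD8 T cells read 74.3, 79.6, 55.8 and 74.4 CPM, against 81 CPM in the library labelled untreated. Isg15 did not pass in any population (log2 differences 0.86, 1.40 and 0.54), though no irradiated library overlapped the untreated one. Levels of Usp18 were 85.9 CPM without and 182, 163, 143 and 174 CPM with irradiation in CD11c+CD11b+ cells, 66.2 and 168, 136, 172 and 174 CPM in CD11c-CD11b+ cells, and 60.6 and 135, 116, 108 and 108 CPM in CD11c+CD11b- cells. Usp18 in CD8 T cells read 111, 103, 96.8 and 114 CPM with irradiation, and 72.8 CPM in the library labelled untreated. Usp18 rose by 0.94 ± 0.14 in CD11c+CD11b+ cells (edgeR adjusted p = 0.0493) and differed by 1.30 ± 0.20 and 0.88 ± 0.16 in CD11c-CD11b+ and CD11c+CD11b- cells (adjusted p = 0.15 and 0.0692).

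The nucleotide and RNA enzymes showed the widest gap between the CD11b+ populations. Rsad2 read 258 CPM untreated and 473, 458, 399.5 and 489.9 CPM irradiated in CD11c+CD11b+ cells, 247 and 821, 720.4, 1037 and 951 CPM in CD11c-CD11b+ cells, and 93 and 134, 112, 88.5 and 117 CPM in CD11c+CD11b- cells. Rsad2 in irradiated CD8 T cells read 187, 157, 99.8 and 150.3 CPM, against 245 CPM in the library labelled untreated. Rsad2 (viperin) makes a chain-terminating nucleotide, and its log2 difference was the largest of any member in CD11c-CD11b+ cells, 1.85 ± 0.29 (edgeR adjusted p = 0.15), against 0.81 ± 0.14 in CD11c+CD11b+ cells (adjusted p = 0.0558). For Isg20, the untreated and then the irradiated levels were 36.3 and 49.9, 50, 39.2 and 50.2 CPM in CD11c+CD11b+ cells, 27.5 and 72.9, 79.8, 95.6 and 92.6 CPM in CD11c-CD11b+ cells, and 33.8 and 39.8, 45.1, 35.6 and 29 CPM in CD11c+CD11b- cells. Isg20 stood at 48.6, 51, 51.6 and 67.5 CPM in the irradiated CD8 T libraries and at 22.8 CPM in the library labelled untreated. Isg20, an RNA exonuclease, differed by 1.64 ± 0.22 in CD11c-CD11b+ cells and by 0.37 ± 0.15 in CD11c+CD11b+ cells, neither of which passed. Its irradiated and untreated CD11c+CD11b- libraries overlapped. Cmpk2, the mitochondrial kinase beside Rsad2 on chromosome 12, gave 1.53 ± 0.22 and 0.92 ± 0.17 in the CD11b+ populations.

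Of the 4 RNA sensors, Ddx60, a helicase linked to RIG-I signalling, was called in CD11c+CD11b+ cells (1.03 ± 0.13, edgeR adjusted p = 0.0451). Levels of Ddx60 were 77.6 CPM without and 167, 147, 162 and 162 CPM with irradiation in CD11c+CD11b+ cells, 77.6 and 163, 118, 192 and 164 CPM in CD11c-CD11b+ cells, and 53.7 and 47.7, 46, 37.1 and 46.3 CPM in CD11c+CD11b- cells. Ddx60 in CD8 T cells read 95.1, 86.8, 73.3 and 92.1 CPM with irradiation, and 75.5 CPM in the library labelled untreated. All 4 irradiated CD11c+CD11b- libraries of Ddx60 read below the untreated one (log2 difference -0.35 ± 0.16, adjusted p = 0.234). Ddx58, which encodes RIG-I itself, gave the smallest difference of any member in CD11c+CD11b+ cells, 0.28 ± 0.13, together with the kinase gene Eif2ak2, and -0.44 ± 0.23 in CD11c+CD11b- cells. Ifih1 (MDA5) and Dhx58 (LGP2) were lowest in the untreated library of all 3 myeloid populations and did not pass.

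Bst2 (tetherin) holds budding virions at the membrane and also marks plasmacytoid dendritic cells. For Bst2, the untreated and then the irradiated levels were 141 and 275, 290.2, 217 and 257 CPM in CD11c+CD11b+ cells, 128 and 181, 168, 187 and 194 CPM in CD11c-CD11b+ cells, and 87 and 159, 125, 153 and 118 CPM in CD11c+CD11b- cells. Bst2 stood at 126, 124, 92 and 116 CPM in the irradiated CD8 T libraries and at 184 CPM in the library labelled untreated. Its irradiated values did not overlap the untreated one in any myeloid population. Levels of Ifitm3 were 538 CPM without and 908, 848, 906 and 943 CPM with irradiation in CD11c+CD11b+ cells, 398 and 764, 671, 866 and 849.8 CPM in CD11c-CD11b+ cells, and 197 and 266, 176, 186 and 168 CPM in CD11c+CD11b- cells. Ifitm3 in CD8 T cells read 210.2, 195, 109 and 161 CPM with irradiation, and 477 CPM in the library labelled untreated. Ifitm3 did not overlap in the 2 CD11b+ populations, and in CD11c+CD11b- cells 3 of the 4 irradiated libraries read below the untreated 197 CPM, with a difference of -0.06 ± 0.25 that turned positive in 4 alternative fits.

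Members of the PML nuclear body, a chromatin-associated structure with antiviral function, gave differences near 1 in CD11c+CD11b- cells. Sp100 read 284 CPM untreated and 507, 457, 473 and 532 CPM irradiated in CD11c+CD11b+ cells, 205 and 493, 392, 516 and 550.1 CPM in CD11c-CD11b+ cells, and 212 and 446, 429, 443 and 460.1 CPM in CD11c+CD11b- cells. Sp100 in irradiated CD8 T cells read 465, 435, 514 and 546 CPM, against 278 CPM in the library labelled untreated. Sp100 differed by 1.00 ± 0.14 in CD11c+CD11b- cells (edgeR adjusted p = 0.0659) and 0.78 ± 0.14 in CD11c+CD11b+ cells (adjusted p = 0.0599). For Pml, the untreated and then the irradiated levels were 102 and 167, 157, 165 and 192 CPM in CD11c+CD11b+ cells, 86.6 and 166, 129.7, 156 and 175 CPM in CD11c-CD11b+ cells, and 103 and 214, 190.1, 242 and 221 CPM in CD11c+CD11b- cells. Pml stood at 184, 189, 212 and 248 CPM in the irradiated CD8 T libraries and at 108 CPM in the library labelled untreated. For Pml the differences were 1.01 ± 0.19 (adjusted p = 0.0696) and 0.72 ± 0.15 (adjusted p = 0.0786), and irradiated and untreated values did not overlap in any myeloid population.

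The remaining members have no single role in common. For Rtp4, the untreated and then the irradiated levels were 80 and 183, 179, 168 and 181 CPM in CD11c+CD11b+ cells, 66.7 and 164, 139, 210.4 and 170.3 CPM in CD11c-CD11b+ cells, and 37.4 and 47.8, 38.9, 28.9 and 41.9 CPM in CD11c+CD11b- cells. Rtp4 stood at 81.5, 75, 61.7 and 84.5 CPM in the irradiated CD8 T libraries and at 84.5 CPM in the library labelled untreated. Rtp4, a receptor transporter, rose by 1.14 ± 0.11 in CD11c+CD11b+ cells (edgeR adjusted p = 0.0381, the lowest of the 48) and gave 0.003 ± 0.25 in CD11c+CD11b- cells. Levels of Phf11b were 81.5 CPM without and 188, 159.9, 147 and 166 CPM with irradiation in CD11c+CD11b+ cells, 46.6 and 124, 82.2, 114 and 123 CPM in CD11c-CD11b+ cells, and 36.5 and 99, 70.4, 81.2 and 91.8 CPM in CD11c+CD11b- cells. Phf11b in CD8 T cells read 103, 87, 107 and 108 CPM with irradiation, and 85.5 CPM in the library labelled untreated. Phf11b rose by 1.01 ± 0.15 (adjusted p = 0.0475) and gave 1.26 ± 0.27 and 1.16 ± 0.23 in the other 2 populations. Phf11d read 82.2 CPM untreated and 203, 169.9, 148 and 174 CPM irradiated in CD11c+CD11b+ cells, 67.1 and 146, 104, 141 and 139 CPM in CD11c-CD11b+ cells, and 37.6 and 51.2, 36.2, 23.6 and 30.6 CPM in CD11c+CD11b- cells. Phf11d in irradiated CD8 T cells read 48.5, 40.4, 22.3 and 34 CPM, against 81.5 CPM in the library labelled untreated. Its neighbour Phf11d gave 1.07 ± 0.17 and 0.99 ± 0.23 in CD11c+CD11b+ and CD11c-CD11b+ cells and -0.16 ± 0.37 in CD11c+CD11b- cells, and counts may be shared between the 2 copies. For Epsti1, the untreated and then the irradiated levels were 117 and 227, 198, 198 and 229.7 CPM in CD11c+CD11b+ cells, 62.1 and 149, 96.8, 164 and 163 CPM in CD11c-CD11b+ cells, and 103 and 218, 198, 233 and 240.3 CPM in CD11c+CD11b- cells. Epsti1 stood at 217, 213, 262 and 269.6 CPM in the irradiated CD8 T libraries and at 129 CPM in the library labelled untreated. Epsti1, named for epithelial-stromal interaction, did not overlap between untreated and irradiated libraries of any myeloid population. Levels of Ifi27l2a were 98.9 CPM without and 195, 180.5, 158 and 169 CPM with irradiation in CD11c+CD11b+ cells, 56.3 and 124, 90.3, 149 and 119 CPM in CD11c-CD11b+ cells, and 16.7 and 54.8, 29.1, 38.7 and 37.9 CPM in CD11c+CD11b- cells. Ifi27l2a in CD8 T cells read 142, 115, 169.6 and 185 CPM with irradiation, and 92.8 CPM in the library labelled untreated. The untreated level of Ifi27l2a in CD11c+CD11b- cells was lower than in any other library, and its irradiated values there ran from 29.1 to 54.8 CPM. Lgals3bp read 515 CPM untreated and 946, 942, 822 and 1021 CPM irradiated in CD11c+CD11b+ cells, 485 and 622, 548, 639.9 and 697 CPM in CD11c-CD11b+ cells, and 465 and 499, 525, 419 and 421 CPM in CD11c+CD11b- cells. Lgals3bp in irradiated CD8 T cells read 445, 437, 398 and 483 CPM, against 756 CPM in the library labelled untreated. Lgals3bp did not overlap in the CD11b+ populations and overlapped in CD11c+CD11b- cells. For Ifi44, the untreated and then the irradiated levels were 44.5 and 103, 98.7, 76.8 and 99.5 CPM in CD11c+CD11b+ cells, 52.7 and 71.5, 58.3, 63.8 and 62.6 CPM in CD11c-CD11b+ cells, and 58 and 66.4, 71, 52.7 and 73.2 CPM in CD11c+CD11b- cells. Ifi44 stood at 34.7, 30.2, 17.7 and 25.8 CPM in the irradiated CD8 T libraries and at 45.5 CPM in the library labelled untreated. Ifi44 gave 1.07 ± 0.17 in CD11c+CD11b+ cells (adjusted p = 0.0517) and 0.29 ± 0.17 in CD11c-CD11b+ cells, the smallest difference of the 48 there. Levels of Ifi47 were 121 CPM without and 247, 211, 224 and 286 CPM with irradiation in CD11c+CD11b+ cells, 100.3 and 229.5, 188, 275 and 284 CPM in CD11c-CD11b+ cells, and 86.5 and 144, 137, 118 and 156 CPM in CD11c+CD11b- cells. Ifi47 in CD8 T cells read 169, 156, 191 and 225 CPM with irradiation, and 97.7 CPM in the library labelled untreated. The GTPase Ifi47 did not overlap in any myeloid population. Xaf1, an antagonist of the apoptosis inhibitor XIAP, was called in CD11c+CD11b+ cells at 0.99 ± 0.13 (adjusted p = 0.0444).

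**Figure D3:**
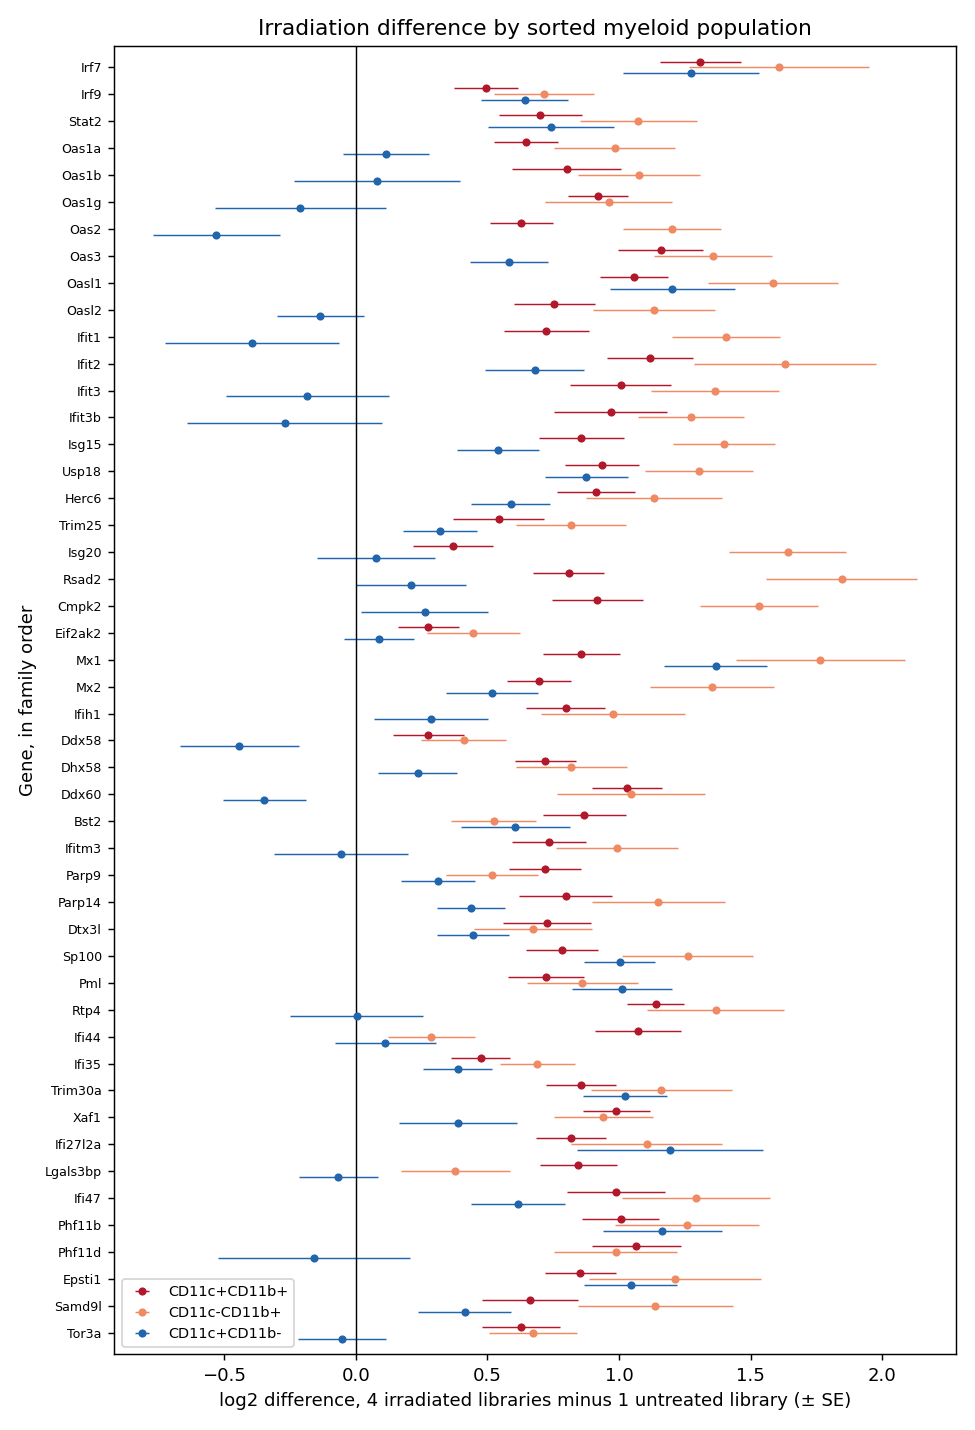
Log2 difference of the irradiated pools from the untreated pool for each member (rows) in the 3 myeloid populations, with bars of 1 standard error. All 48 points are above 0 in CD11c+CD11b+ and CD11c-CD11b+ cells, and 36 in CD11c+CD11b- cells, where the medians of the IFIT genes (-0.23) and RNA sensors (-0.06) are below 0 and that of the oligoadenylate synthetases is 0.08.

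The interaction of irradiation with population asked whether these differences themselves differed. Between CD11c+CD11b- and CD11c+CD11b+ cells the response of 2 members was smaller in CD11c+CD11b- cells by edgeR, Ddx60 (-1.30 ± 0.19, adjusted p = 0.0333) and Ifi44 (-0.88 ± 0.14, adjusted p = 0.0403), with none larger. Over all genes 1.13% were called higher and 0.24% lower, with a median of 0.06, against -0.31 for the members. At an unadjusted p under 0.05, 21 members were lower and 2 higher. Between CD11c+CD11b- and CD11c-CD11b+ cells no member passed (median -0.60, 23 members lower and none higher at an unadjusted p under 0.05, and 9 lower by DESeq2), where 0.0105% of all genes were called higher and 0.0% lower. Between the 2 CD11b+ populations no member passed (median -0.24 for CD11c+CD11b+ minus CD11c-CD11b+ cells, 9 lower and 2 higher at an unadjusted p under 0.05, and 4 lower and 1 higher by DESeq2), where 0.361% of all genes were called lower and 0.0266% higher. The calls of Ddx60 and Ifi44 were absent when the RT pool or the RT with both antibodies pool was left out, 5 members were lower without the RT with anti-SIRPa pool, and DESeq2 called 14 members lower and 1 higher.

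Comparing populations with the treatment pool as a block, CD11c+CD11b- cells held less of nearly the whole set. Of the 48 members 43 were lower than in CD11c+CD11b+ cells by edgeR's quasi-likelihood test and 1, Pml, was higher, where 22.3% of all genes were called lower and 23.1% higher, with a median of -1.16 against 0.004 over all genes. The largest was Oas2, at 42.0 ± 10.1 CPM in CD11c+CD11b- and 209 ± 36.4 CPM in CD11c+CD11b+ cells (SD, n = 5 pools), a log2 difference of -2.33 ± 0.21 (adjusted p = 0.000166). Oas1g followed at -2.27 ± 0.21 and Ifi27l2a at -2.25 ± 0.13, and the Ifit, Phf11d and Ifitm3 genes also lay beyond -1.6. Pml was higher by 0.27 ± 0.09 (adjusted p = 0.0353), a call that fell away when any of the 4 irradiated pools was left out. Isg20, Ifi44, Sp100 and Epsti1 were not called in either direction. Macrophage and monocyte marker sums were also lower in these libraries, at 553 to 1212 and 2033 to 3973 CPM against 7567 to 14529 and 4697 to 9256 CPM, and their part in the result was not tested. By promoter, the median of this difference was -1.60 for the 17 members with the response element core and -0.70 for the 20 without, a description of members chosen with these data in view. The medians of the irradiation difference were 0.855 with and 0.849 without the core in CD11c+CD11b+ cells and 1.07 and 1.13 in CD11c-CD11b+ cells, and in CD11c+CD11b- cells the members without it had the higher median, 0.43 against 0.11.

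Against CD11c-CD11b+ cells, CD11c+CD11b- cells were lower for 41 members and higher for 2, where 24.1% and 23.0% of all genes were called (median -1.02, against -0.003). Rsad2 gave the largest difference, -2.67 ± 0.29 (edgeR adjusted p = 0.000428), and Oas2 and Ifit3b followed at -2.37 ± 0.30 and -2.22 ± 0.30. The 2 members that were higher were Epsti1 (0.67 ± 0.09, adjusted p = 0.00128) and Pml (0.43 ± 0.08, adjusted p = 0.00456), and both calls were absent in a fit without the pool block. By levels, Epsti1 read 97 to 164 CPM in irradiated CD11c-CD11b+ cells and 198 to 240 CPM in irradiated CD11c+CD11b- cells, with no overlap.

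The 2 CD11b+ populations were closer in level. CD11c+CD11b+ cells were higher for 11 members and lower for 4, where 12.0% of all genes were called higher and 12.9% lower, with a median of 0.10. Higher were Epsti1 (0.65 ± 0.11, edgeR adjusted p = 0.00296), Phf11b (0.62 ± 0.09) and Ifi27l2a (0.60 ± 0.12), then Lgals3bp, Irf7, Bst2, Oas1g, Phf11d, Oas1a, Dhx58 and Dtx3l. Lower were Rsad2 (415 against 755 CPM, -0.76 ± 0.17, adjusted p = 0.0118), Isg20 (-0.62 ± 0.20, adjusted p = 0.0476), Ifit1 (-0.45 ± 0.13, adjusted p = 0.0308) and Cmpk2 (-0.42 ± 0.12, adjusted p = 0.0294). No member of either direction passed without the pool block, and leaving out 1 pool left between 3 and 13 higher and between 0 and 4 lower. Without the RT with both antibodies pool 6 were higher and 0 lower, and without the RT pool 3 and 0.

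**Figure D4:**
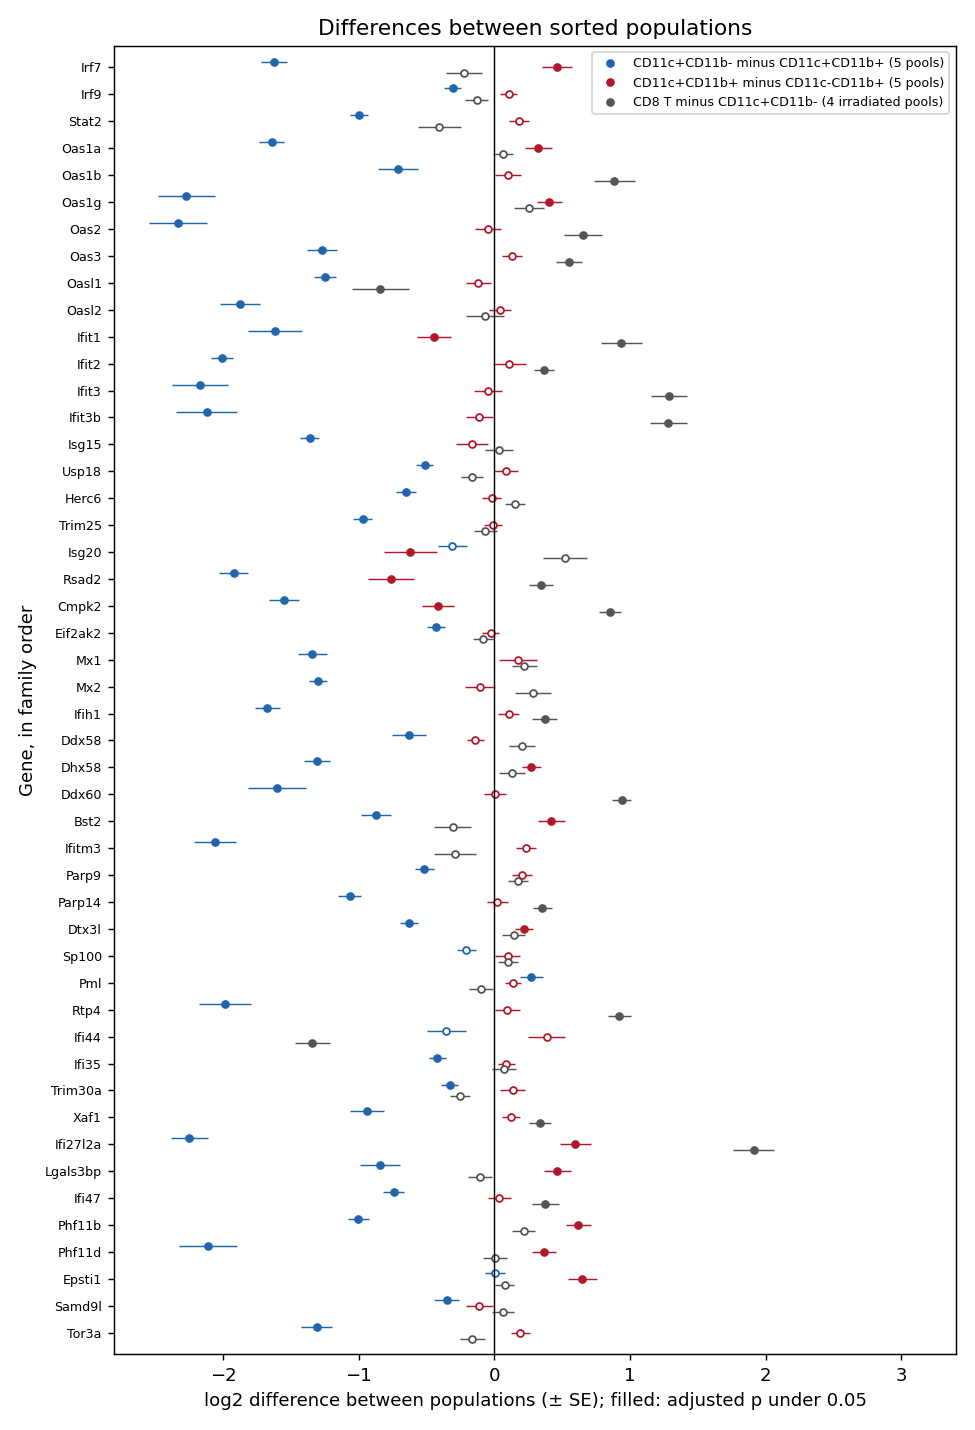
Log2 difference of each member (rows) in 3 population comparisons blocked by treatment pool, with bars of 1 standard error. The points of CD11c+CD11b- minus CD11c+CD11b+ cells lie mostly below 0, with a median of -1.16. Those of CD11c+CD11b+ minus CD11c-CD11b+ cells have a median of 0.10. Those of CD8 T minus CD11c+CD11b- cells, over the irradiated pools alone, have a median of 0.15. Filled points passed edgeR's test.

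Among the irradiated pools, CD8 T cells and CD11c+CD11b- cells held sums of similar size with a different make-up. By edgeR 16 members were higher in CD8 T cells and 2 lower, where 8.57% of all genes were called higher and 10.4% lower, with a median of 0.15 against 0.001. Higher were Ifi27l2a (1.91 ± 0.15, adjusted p = 0.000412), Ifit3 (1.29 ± 0.13) and Ifit3b (1.28 ± 0.14), with Ddx60, Ifit1, Rtp4, Oas1b and Cmpk2 between 0.85 and 0.94. Lower were Ifi44 (-1.34 ± 0.13, adjusted p = 0.00093) and Oasl1 (-0.84 ± 0.21, adjusted p = 0.0341). Irradiated CD8 T libraries also carried 1221 to 2750.2 CPM of macrophage markers, against 553 to 1146 CPM in irradiated CD11c+CD11b- libraries, and their part in the result was not tested. Leaving out the RT with both antibodies pool left 8 members higher, and leaving out the RT pool 9.

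Anti-SIRPa and anti-PD-1 were tested within the 4 irradiated pools of each population, each with a term for the other antibody and 1 residual degree of freedom. Anti-SIRPa gave no call among the 48 members in any population. In CD8 T cells the median was 0.15 with 42 of 48 positive (53.2% of all genes) and 7 members at an unadjusted p under 0.05, where 0.152% of all genes were called higher and 0.0182% lower. Oas2 was the largest at 0.45 ± 0.09 (edgeR adjusted p = 0.148). In CD11c+CD11b+ cells the median was 0.01 with none at an unadjusted p under 0.05, where 0.124% of all genes were called higher and 0.0295% lower. For CD11c+CD11b- cells it was -0.08 with 1 member higher and 5 lower at an unadjusted p under 0.05 (0.271% and 0.602% of all genes called). In CD11c-CD11b+ cells it was -0.13 with 41 of 48 negative, where 49.6% of all genes were positive, and 3 lower at an unadjusted p under 0.05 (0.0% of all genes called in both directions). Neutrophil markers there read 666, 3309.8, 1637 and 1037 CPM in the 4 irradiated pools, so that the 2 pools with and the 2 without anti-SIRPa overlapped. DESeq2 called none of the members for anti-SIRPa in any population.

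Anti-PD-1 gave calls in CD8 T cells and CD11c+CD11b- cells. In CD8 T cells 4 members rose and 7 fell by edgeR, where 3.28% of all genes were called higher and 5.71% lower. The 7 that fell were Oas1g (-0.79 ± 0.14, adjusted p = 0.0149), Phf11d (-0.69 ± 0.17, adjusted p = 0.0465), Oas2 (-0.68 ± 0.09, adjusted p = 0.00548), Oasl1, Ifitm3, Oasl2 and Mx2. Rising were Ifi27l2a (0.46 ± 0.09, adjusted p = 0.0234), Ifi47 (0.34 ± 0.09, adjusted p = 0.0446), Epsti1 (0.30 ± 0.07) and Pml (0.29 ± 0.07). By value, Oas2, the member with the lowest adjusted p there, read 39.1 and 60.9 CPM in the 2 pools with anti-PD-1 and 70.6 and 86.1 CPM in those without. Macrophage markers were 1221 and 1929 CPM with anti-PD-1 and 2750.2 and 2528 CPM without, and CD8 T markers 4954 and 4729 against 3448 and 3247 CPM; their part in the result was not tested. No member was called without a term for the other antibody or without the filter, DESeq2 called 1 higher and 6 lower, and on protein-coding transcripts alone 1 was lower.

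Within CD11c+CD11b- cells 5 members fell with anti-PD-1 and none rose, where 5.94% of all genes were called lower and 4.27% higher. They were Ifit3b (-0.80 ± 0.13, edgeR adjusted p = 0.0137), Oas1g (-0.67 ± 0.14, adjusted p = 0.026), Ifit3 (-0.63 ± 0.13, adjusted p = 0.0253), Oas2 (-0.47 ± 0.12, adjusted p = 0.0443) and Ddx58 (-0.37 ± 0.08, adjusted p = 0.0356). Ifit3 read 68.1 and 82.8 CPM in the 2 pools with anti-PD-1 and 130 and 110 CPM in those without. Macrophage markers were 553 and 691 CPM with anti-PD-1 and 1146 and 880.1 CPM without, and monocyte markers 2033 and 2309 against 2676 and 2965 CPM; their part in the result was not tested. DESeq2 called 3 members lower, no filter or no term for the other antibody left 0, and on protein-coding transcripts alone Oas1g was 0.12 higher and not called. In CD11c+CD11b+ cells no member passed (median 0.03; 3.09% of all genes called higher and 5.75% lower), with 2 higher and 2 lower at an unadjusted p under 0.05. In CD11c-CD11b+ cells 44 of 48 differences were positive (51.9% of all genes) with a median of 0.25 and none passed, 7 being higher at an unadjusted p under 0.05 (0.0% of all genes called in both directions).

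**Figure D5:**
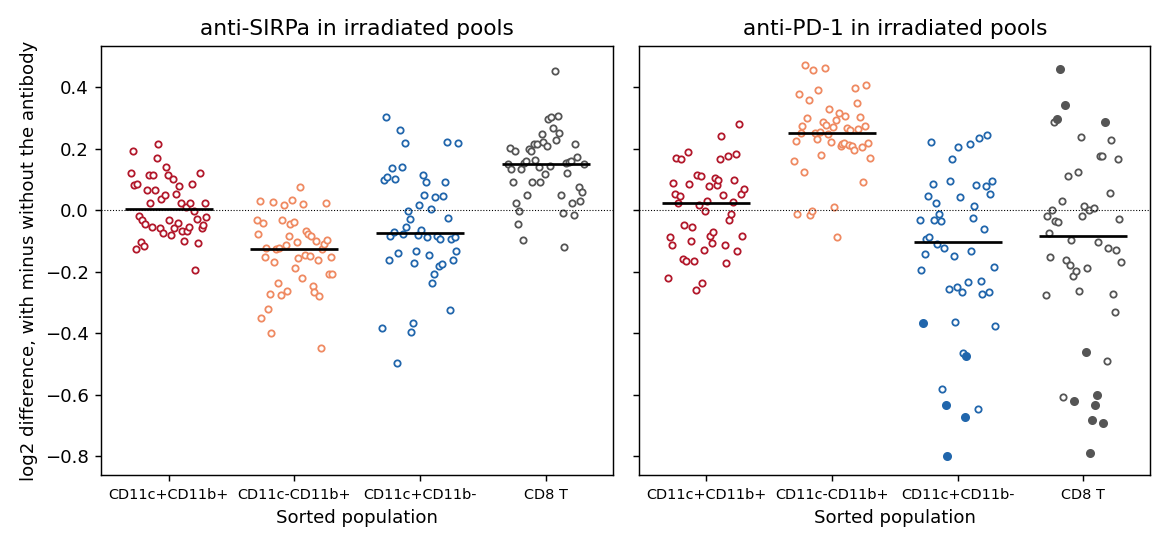
Log2 difference (vertical axis) of each member, drawn as a point, within the irradiated pools of the 4 populations (horizontal axis). Anti-SIRPa and anti-PD-1 have separate panels. Black lines mark the median of the members, and filled points passed edgeR's test. No anti-SIRPa point passed edgeR's test, and 11 anti-PD-1 points in CD8 T cells and 5 in CD11c+CD11b- cells did.

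Single libraries were also set against each other without a test, as ratios that have no replicate check. RT alone over untreated was 1.5-fold or more higher for 42 of 48 members in CD11c+CD11b+ cells (8.41% of all genes at 10 CPM or more), for 42 of 48 in CD11c-CD11b+ cells (12.0%) and for 20 of 47 in CD11c+CD11b- cells (14.0%). None was 1.5-fold or more lower, where 9.77%, 12.4% and 12.3% of all genes were. RT with both antibodies over RT alone was 1.5-fold or more higher for none of the members, where 0.722% of all genes were in CD11c+CD11b+, 1.52% in CD11c-CD11b+, 1.6% in CD11c+CD11b- and 1.57% in CD8 T cells. It was lower for 6 of 47 members in CD11c+CD11b- cells (4.51% of all genes) and for none in the others (1.28% in CD11c+CD11b+, 2.03% in CD11c-CD11b+ and 3.55% in CD8 T cells).

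The other genes of the pathway were read from lists of ligands, receptors, transducers, regulatory factors, sensors, negative regulators and interferon gamma response genes. The 20 type I and III interferon genes were nearly silent: 3 held no count in any library, 2 (Ifnb1 and Ifnk) reached 1 CPM or more in any, and the summed level ran from 0.581 to 3.91 CPM. Interferon alpha genes reached at most 0.275 CPM. Ifng, the ligand of the type II pathway, read 400, 395, 657 and 678 CPM in irradiated CD8 T cells. In CD11c+CD11b+ cells 6 genes of these lists rose with irradiation by edgeR: the DNase Trex1 (1.98 ± 0.14, adjusted p = 0.0216), Cxcl11 (2.51 ± 0.36, adjusted p = 0.0475), the receptor Tlr9 (1.42 ± 0.20), Tlr3 (1.14 ± 0.17), the Z-nucleic acid sensor Zbp1 (0.96 ± 0.13) and Il10rb (0.81 ± 0.12), and none of the list genes passed in the other 2 populations. Trex1 read 18.6 CPM untreated and 73.3, 70.8, 71.9 and 79.0 CPM irradiated, with no overlap. Of the 16 sensors and adaptors, 16 had positive differences in CD11c+CD11b+ cells (4 called), of 17 interferon gamma response genes tested 17 (1 called), and of 7 interferon regulatory factors 5 (none called), where 51.5% of all genes had positive differences and 0.622% were called higher. The CD11c+CD11b- libraries held Irf8, the factor that sets the cDC1 lineage, at 562 CPM untreated and 1413, 1163, 1685 and 1412 CPM irradiated. Irf8 is 1 of the 11 cDC1 markers and so a part of their sums above, 856 CPM untreated and 1953 to 3993 CPM irradiated.

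Members followed each other across libraries to different degrees, which is given as a description over libraries that share treatments and populations. Correlated with the mean log2 CPM of the other members over the 20 libraries, the 48 members had a median r of 0.90, 27 were at 0.9 or more, Ifit2 was the highest at 0.993, and 3 were under 0.5: Pml (-0.001), Epsti1 (0.05) and Ifi44 (0.49). Within the 5 CD11c+CD11b+ libraries Pml reached 0.968 and Epsti1 0.995, and within the 4 irradiated CD8 T libraries Pml read 0.054 and Epsti1 -0.305. With the library labelled untreated CD8 T included, these were -0.278 and -0.399. Without that library, r over the other 19 had a median of 0.914, with Pml at -0.029, Epsti1 at 0.04 and Ifi44 at 0.484 again the 3 under 0.5. Of genes outside the list, 10 followed its mean most closely over all 20 libraries among 9461 genes at 10 CPM or more on average: Ms4a4c (r = 0.977), Tent4a, H2-T24, Irgm1, Rap2c, Irgm2, Daxx, Slfn2, AB124611 and Irf2 (0.959). Over the 19 libraries 7 of these 10 were again among the 10 nearest, led by Irgm1 (0.985). Over the 15 myeloid libraries the nearest were Ifit1bl1 (0.992), Zbp1, Irgm1, Rnf34 and Sphk2.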

How the data were processed

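The data were RNA-seq of 20 libraries, 1 for each of 4 sorted populations under 5 treatments. Each deposited value was an estimated count (expected count) of a transcript, a whole number that the authors made. Per the submitters' processing notes, FastQC 0.11.8, HISAT2, StringTie, edgeR 3.34.0 and the GRCm38 build were used. For HISAT2 and StringTie no version is given in the sources used here. Of 142699 transcripts, 141469 were matched to GENCODE M21 and summed to 55260 genes. The 1230 others held at most 0.4% of a library's counts. No rounding was needed.

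Counts were filtered with filterByExpr (minimum count 10, minimum total 15), scaled by TMM and tested with edgeR 4.0.16 (quasi-likelihood F-test) in R 4.3.3, with Benjamini-Hochberg adjustment over all genes tested and a limit of 0.05. Standard errors are the absolute log2 difference over the square root of F, an approximation. Population comparisons had the treatment pool as a block because libraries of 1 letter come from the same pooled tumours. They had 4 residual degrees of freedom over 5 pools and 3 over the irradiated pools. Irradiation tests had 3 and antibody tests 1. Ratios of single libraries used a prior count of 2, a limit of 10 CPM and 1.5-fold, with no test. TPM came from counts per transcript length. Alternatives were DESeq2 1.42.0, its size factors in edgeR (RLE), no filter, a filter by the design, protein-coding transcripts alone, added or dropped antibody terms, all 20 libraries in 1 fit (the library labelled untreated CD8 T included), no pool block, and each pool left out. Figures were drawn in Python 3.11.15 with matplotlib 3.10.9. Scripts were tested on simulated data.

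The members, their families, the pathway and marker lists and the promoter split were chosen with earlier results of these data known. Values in every library were given for 18 members fixed by name, and for up to 3 members per direction and tested comparison with the largest difference among those that passed at 10 CPM or more in 2 libraries. The genes most like the set were the 10 and 5 with the highest Pearson r, leaving out predicted gene models. Promoters came from a RefSeq table for GRCm38.p6 that matched 37 of the 48 members by symbol. Rtp4, Oas2, Ifi27l2a, Mx1, Dhx58, Oas1b, Parp14, Parp9, Usp18, Mx2 and Tor3a were not among them.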

Additional observations from a re-analysis of the deposited data

Results flagged for a closer look

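Of 76 groups of 4 irradiated libraries tested for an outlying library, 5 held one by Dixon's test, and chance flags about 1 group in 20. In CD11c+CD11b+ cells the RT with anti-PD-1 library was far below the other 3 for Ifit3, at 392.8 CPM, and for Isg20, at 39.2 CPM. In CD11c-CD11b+ cells the RT with anti-SIRPa library was far below the others for Usp18, at 136.5 CPM. In CD11c+CD11b- cells the RT library was far above the others for Oasl2, at 184.1 CPM. In CD8 T cells the library of RT with both antibodies was far above the others for Isg20, at 67.5 CPM.

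The difference with irradiation itself differed between CD11c+CD11b- and CD11c+CD11b+ cells for 2 members by edgeR's interaction test. It was smaller in CD11c+CD11b- cells by -1.30 on the log2 scale for Ddx60 and by -0.88 for Ifi44.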

How the results depend on the processing

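Each result was recomputed under the listed alternatives. Counts of members called in an alternative stand without the share of all genes called in the same fit. Of the alternative values of the summary results 484 kept their direction and size, 75 moved and 2 turned; those follow. With edgeR and no filter, members called in CD11c+CD11b+ against CD11c-CD11b+ cells went to 6 higher and 1 lower, in CD11c+CD11b- against CD11c+CD11b+ cells to 0 higher, in CD8 T against CD11c+CD11b- cells to 1 lower, with irradiation of CD11c+CD11b+ cells to 0, with anti-PD-1 to 0 higher and 0 lower in CD8 T and 0 lower in CD11c+CD11b- cells, and in the interaction of CD11c+CD11b- and CD11c+CD11b+ cells to 0 lower (median -0.42). DESeq2 called 44 (CD11c+CD11b+), 18 (CD11c+CD11b-) and 41 (CD11c-CD11b+) members higher with irradiation, 1 higher with anti-PD-1 in CD8 T cells and 3 lower in CD11c+CD11b- cells. For the interactions it called 1 higher and 14 lower (CD11c+CD11b- minus CD11c+CD11b+), 1 higher and 4 lower (between the CD11b+ populations) and 9 lower (CD11c+CD11b- minus CD11c-CD11b+). Protein-coding transcripts alone gave 2 lower between the CD11b+ populations, 0 with irradiation in CD11c+CD11b+ cells, 0 lower in the first interaction, 0 higher and 1 lower with anti-PD-1 in CD8 T cells, and 1 higher and 0 lower in CD11c+CD11b- cells; there Tor3a (CD11c+CD11b- against CD11c-CD11b+ cells) turned to 1.21, Oasl2 (irradiation, CD11c+CD11b- cells) to 0.066 and Oas1g (anti-PD-1, CD11c+CD11b- cells) to 0.12.

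Without the replicate block of the pool, calls between the CD11b+ populations went to 0 higher and 0 lower, and the higher calls of CD11c+CD11b- cells against either to 0. With antibody terms, irradiation called 45 members in CD11c+CD11b+ cells and 15 higher and 1 lower in CD11c+CD11b- cells, where Oasl2 turned to 0.006, Ifit3 to 0.079, Lgals3bp to 0.023 and Ifitm3 to 0.23. All 20 libraries in 1 fit gave 16 (CD11c+CD11b-) and 34 (CD11c-CD11b+) higher with irradiation, with Lgals3bp at 0.004 and Ifitm3 at 0.014, and with anti-PD-1 0 higher and 2 lower in CD8 T cells and 1 lower in CD11c+CD11b- cells. The filter by the design, added after seeing the data, gave 4 with irradiation in CD11c+CD11b+ cells, and with anti-PD-1 2 higher in CD8 T and 2 lower in CD11c+CD11b- cells. RLE gave 1 higher with anti-PD-1 in CD8 T cells, and no term for the other antibody 0 higher and 0 lower there and 0 lower in CD11c+CD11b- cells. Scaling by total count alone moved the median of RT over untreated in CD11c+CD11b+ cells to 0.79, turned that of both antibodies over RT to -0.014 there and to -0.023 in CD8 T cells, and gave 1 lower in CD8 T cells.

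Leaving out 1 pool gave 0 to 1 higher in CD11c+CD11b- against CD11c+CD11b+ cells, 3 to 13 higher and 0 to 4 lower between the CD11b+ populations, 8 to 16 higher and 1 to 3 lower in CD8 T against CD11c+CD11b- cells, and with irradiation 0 to 43 (CD11c+CD11b+), 0 to 17 (CD11c+CD11b-) and 0 to 45 (CD11c-CD11b+) higher. It gave 0 to 5 lower in the interaction of CD11c+CD11b- and CD11c+CD11b+ cells and 0 to 1 in that between the CD11b+ populations. The irradiation difference in CD11c+CD11b- cells ran from -0.012 (without the RT with anti-SIRPa pool) to 0.172 for Isg20, and from -0.22 to 0.01 for Ifitm3, which turned without that pool (0.010) and without the RT with both antibodies pool (0.009). The cause was not tested. Leaving out a pool was not run for antibody tests, which would have had no residual degree of freedom. With 1 library per group, the tests cannot separate treatment from pool.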

Other observations

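Between the 2 CD11b+ populations, 5 of 7 interferon regulatory factors, 4 of 6 interferon receptor genes, 3 of 6 kinases and signal transducers and 7 of 16 nucleic acid sensors and adaptors were higher on the CD11c+ side by edgeR's test, and none of these 4 lists had a gene called lower, where 12.0% of all genes were called higher and 12.9% lower. Their medians were 0.51, 0.38, 0.28 and 0.25 on the log2 scale, against 0.10 for the 48 members. Of the 2 interferon genes tested 1, Ifnb1, was lower (-1.01, edgeR adjusted p = 0.0396) and none higher. That call rests on few counts, 13 to 35 per CD11c+CD11b+ library and 28 to 53 per CD11c-CD11b+ library. Of 10 negative regulators 1 was higher, and of 18 genes of interferon gamma and its response 7 were higher and 2 lower. Macrophage markers read 7567 to 14529 CPM in CD11c+CD11b+ and 4461 to 8535 CPM in CD11c-CD11b+ libraries, and their part in the result was not tested. Between CD11c+CD11b- and CD11c+CD11b+ cells the receptors (4 lower, 1 higher of 6) and the sensors and adaptors (10 lower, none higher of 16) were mostly lower, as were the members, and the regulatory factors (2 higher, 3 lower of 7) and the kinases and transducers (3 higher, 1 lower of 6) were mixed, where 23.1% of all genes were called higher and 22.3% lower.

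In CD11c+CD11b- cells Trex1 varied between irradiated pools, at 44.7, 5.86, 28.5 and 17.4 CPM, with 4.38 CPM untreated. Tlr9 read 119, 47.9, 124 and 88.8 CPM there, with 18.4 CPM untreated, and the RT with anti-SIRPa pool was the lowest of the irradiated pools for both genes and for Irf7, at 272 CPM. That library was also the lowest of the irradiated pools for the markers of plasmacytoid (429 against 778 to 1198 CPM), cDC1 (1953 against 3277 to 3993 CPM) and mature dendritic cells (825 against 1453 to 1949.6 CPM), and their part in the result was not tested.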
